A study of Mus musculus with 16 samples.

Results

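The genes described here are 10 markers by which GABA interneurons are commonly told apart: the peptide precursors Sst, Npy, Vip, Cck, Tac1, Penk and Crh, and the calcium-binding proteins Pvalb, Calb1 and Calb2. They were taken from the deposited table by their gene symbols, 1 row for each symbol, and are 10 of 39017 rows and 10 of the 14814 genes tested; all 10 reached the required mean of 10 normalized reads across the 16 libraries. The libraries come from micro-dissected prefrontal cortex (PFC) and ventral midbrain (vMB) of male C57BL/6JRcc mice, aged 13 weeks. In each tissue, 4 libraries are from homozygous CRISPR/Cas9 knock-in mice carrying the H150Y substitution in Cdh2, the gene of the adhesion protein N-cadherin (Mutant), and 4 are from wild-type mice (WT). The substitution is present in the germline, so it is carried by every cell type and not by interneurons alone. More than 1 founder line was made, and the sources used here do not say which line a library came from. The mice had been through behavioral tests. Before dissection they were perfused with cold phosphate-buffered saline and then with formaldehyde, a fixative. The tissue was not sorted by cell type. Values are read counts per gene that the authors normalized with DESeq2, called normalized read counts below.

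Most cortical inhibitory neurons fall into classes marked by parvalbumin, by somatostatin or by vasoactive intestinal peptide, and these classes contact different parts of their target cells. Parvalbumin, calbindin and calretinin, the products of Pvalb, Calb1 and Calb2, bind calcium ions and shape the calcium signal after a spike. Neuropeptides are cut from precursors, stored in dense-core granules and released with GABA, and their genes often respond to neuronal activity. None of the 10 genes is confined to interneurons: Cck is also abundant in cortical pyramidal cells and in some dopamine neurons, Penk and Tac1 in striatal projection neurons, Crh in the hypothalamus, and Pvalb, Calb1 and Calb2 in many midbrain neurons.

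Promoter sequence was available for 6 of the 10 genes, Sst, Npy, Vip, Cck, Tac1 and Pvalb, which are shown because most of them shifted in the same direction between genotypes and because several are textbook targets of cAMP signalling. Each line gives the 110 bases before a RefSeq transcription start, on the strand of the gene, in GRCm38.p6. Capitals mark the cAMP response element TGACGTCA, its core TGACG, the E-box CACGTG and the TATA box TATAAA, read on both strands; the core is contained in the full element, and where the core lies on the other strand it is printed as CGTCA.

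Sst (chr16:23890845-23890954, minus strand): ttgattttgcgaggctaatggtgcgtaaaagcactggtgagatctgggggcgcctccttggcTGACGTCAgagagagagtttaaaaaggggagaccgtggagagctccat
Vip (chr10:5639108-5639217, plus strand): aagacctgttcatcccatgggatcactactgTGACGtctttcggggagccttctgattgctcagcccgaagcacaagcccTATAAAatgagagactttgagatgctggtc
Cck (chr9:121495695-121495804, minus strand): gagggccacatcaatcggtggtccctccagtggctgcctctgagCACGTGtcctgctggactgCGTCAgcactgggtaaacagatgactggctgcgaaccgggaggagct
Tac1 (chr6:7554951-7555060, plus strand): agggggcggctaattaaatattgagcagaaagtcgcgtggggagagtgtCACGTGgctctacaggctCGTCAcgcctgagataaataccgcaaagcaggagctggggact
Npy (chr6:49822600-49822709, plus strand): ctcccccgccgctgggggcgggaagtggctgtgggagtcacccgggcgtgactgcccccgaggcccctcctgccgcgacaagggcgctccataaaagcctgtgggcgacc
Pvalb (chr15:78206401-78206510, minus strand): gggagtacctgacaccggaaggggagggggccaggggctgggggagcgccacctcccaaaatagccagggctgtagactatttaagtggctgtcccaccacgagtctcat

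The Sst stretch held the full element, 48 bases before the start. Among all 32817 RefSeq windows of the same kind, 300 bases long, 1.79% held the full element and 20.8% held its core. Sst, Vip, Cck and Tac1 held the core, and Npy and Pvalb, the genes that passed the genotype test below, did not hold it in their windows (7 windows in all, with a second one for Pvalb). The E-box was found in Cck and Tac1, against 7.15% of all windows. The TATA box stood in Vip, 30 bases before the start, and 13.6% of all windows held that motif. A match describes these letters only and is no evidence that a factor bound there.

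About 7740000 to 11300000 reads were assigned to genes in each library, as estimated from the step between low values. Cdh2 itself, read through its own locus, averaged 635 ± 112 in PFC Mutant libraries and 1053 ± 104 in PFC WT libraries (SD, n = 4 each), and 829 ± 287 in vMB Mutant against 1117 ± 27.5 in vMB WT libraries. The vMB Mutant values of Cdh2 were 1110, 1043, 590 and 574 in replicates 1 to 4, against a vMB WT range of 1082 to 1148. Replicates 1 and 2 were thus near the WT level and replicates 3 and 4 far below it. The cause of this split was not tested. A point substitution need not alter the level, so the Cdh2 values check the labels only in part. The tissue labels fitted their markers: Slc6a3, the dopamine transporter, lay between 424 and 799 in vMB libraries and at or below 6.72 in PFC libraries, while Slc17a7, the vesicular glutamate transporter of cortical projection neurons, was at most 3112 in vMB and at least 13396 in PFC libraries.

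The first question was whether these interneuron genes differ between Mutant and WT mice. Differences are given on the log2 scale after adding 1 to each value, from a limma model over all 16 libraries. The model has 1 estimate of the spread of each gene, shared by all groups, so a gene has the same SE in PFC and in vMB. It took the 16 libraries as independent, although PFC and vMB libraries may share mice. The adjustment of p-values ran across the 14814 tested genes, and a gene was called at an adjusted p of at most 0.05 with a fold change of at least 1.3. In neither tissue alone was any of the 10 genes called. The background was 0.142% of tested genes called in PFC and 3.25% in vMB. At an unadjusted p under 0.05 there were 2 of the 10 in PFC and 5 in vMB, against 17.1% and 20.9% of all tested genes. Averaged over both tissues, 2 of the 10, Npy and Pvalb, were called higher in Mutant, against 0.945% of all tested genes called higher in that comparison. Neither was called with a trend on transcript length removed, where Npy differed by 0.18 (adjusted p = 0.465) and Pvalb by 0.21 (adjusted p = 0.235). The direction was shared more widely than the calls: the difference was above 0 for 9 of 10 genes in PFC, 9 of 10 in vMB and all 10 over both tissues, where 48.4%, 48.9% and 47.8% of all tested genes lay above 0. The median difference of the 10 genes was 0.27 in PFC, 0.35 in vMB and 0.27 over both tissues, and the median of all tested genes was -0.01 in each of the 3 comparisons. The 10 genes were chosen with earlier results of these data known, so these counts describe them and test nothing.

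**Figure D1:**
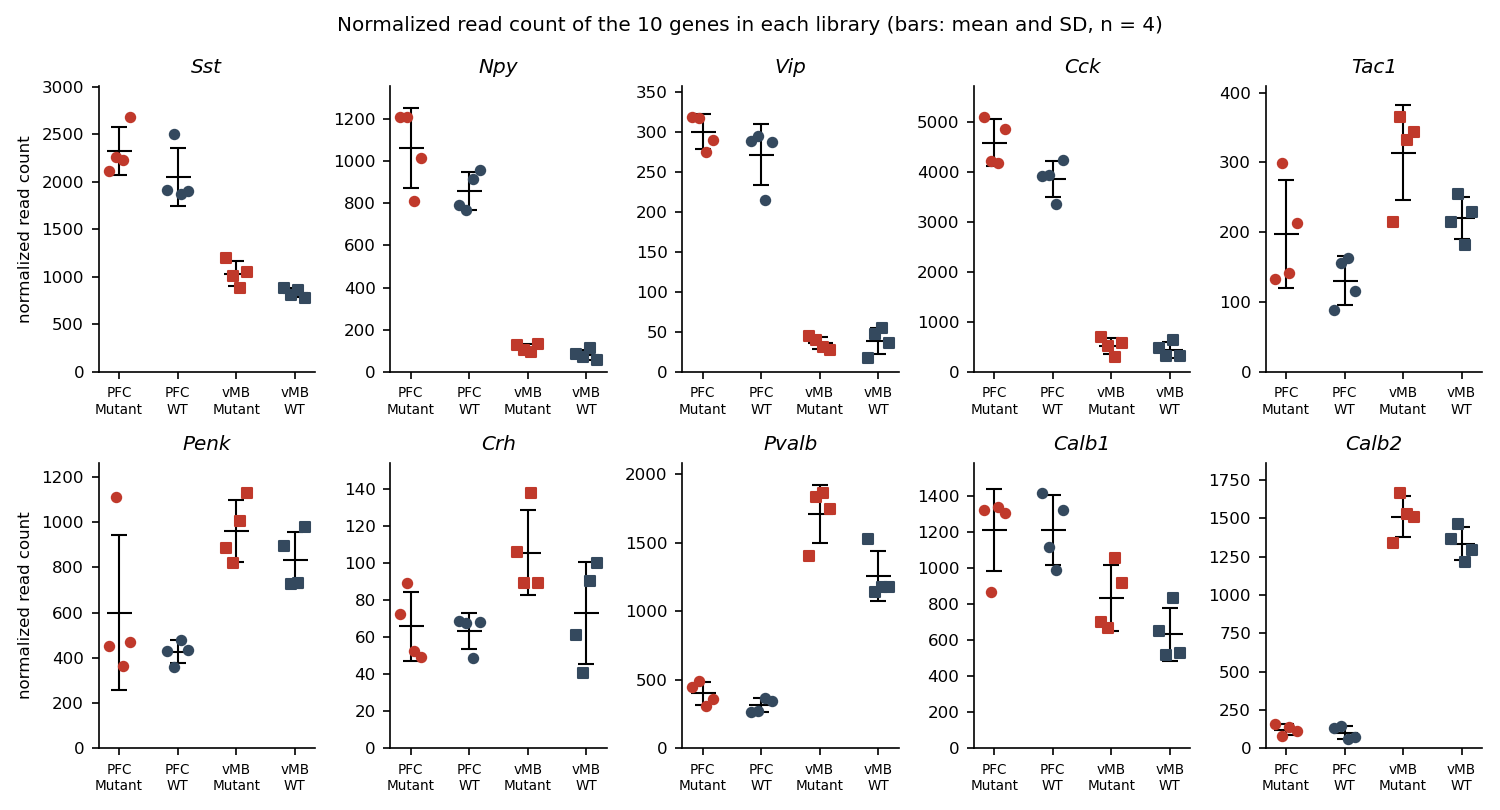
Normalized read count (y axis, linear from 0) of each of the 10 genes in the 16 libraries, as points for PFC Mutant, PFC WT, vMB Mutant and vMB WT, with the mean and SD of each group (n = 4). No gene separates the Mutant from the WT points completely in either tissue; the Calb2 points of the tissues lie far apart, with means of 1511 in vMB Mutant and 122 in PFC Mutant, while the Crh points of the tissues overlap.

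Sst encodes somatostatin, the inhibitory peptide of dendrite-targeting interneurons. Its normalized read counts were 2113, 2262, 2228 and 2688 in PFC Mutant libraries, against 1917, 2504, 1870.0 and 1907 in PFC WT libraries. In vMB they were 1200.1, 1011, 879.9 and 1049 in Mutant, against 880.0, 806, 863 and 777 in WT. In PFC, a single WT library (replicate 2) lay above 3 of the Mutant libraries; in vMB, 3 Mutant libraries lay above every WT library and Mutant replicate 3 was level with the highest of them. The log2 difference for Sst was 0.19 ± 0.10 (SE; adjusted p = 0.379) in PFC and 0.31 ± 0.10 (adjusted p = 0.0851) in vMB. Over both tissues it was 0.25 ± 0.07 with an adjusted p of 0.0338, a fold of 1.19 that stayed under the minimum of 1.3. In vMB alone Sst was called when Mutant replicate 3 was left out (0.38, adjusted p = 0.0437).

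Npy encodes neuropeptide Y, carried by neurogliaform cells and a subset of somatostatin cells. It had 1208, 1211, 813 and 1016 normalized reads in PFC Mutant libraries, against 791, 769.9, 915 and 956 in PFC WT libraries. Its vMB values were 127, 104, 94.1 and 132 in Mutant and 83.3, 69.9, 114 and 55.0 in WT. In PFC, 3 Mutant libraries exceeded all WT libraries; in vMB, 2 did, and WT replicate 3 stood within the Mutant range. For Npy the log2 difference was 0.30 ± 0.18 (adjusted p = 0.427) in PFC, 0.53 ± 0.18 (adjusted p = 0.0869) in vMB and 0.41 ± 0.13 (adjusted p = 0.0397) over both, a 1.33-fold higher level in Mutant. Npy was called in 5 of the 16 fits that each left out 1 library, those without PFC WT 4, PFC Mutant 3, vMB WT 1, vMB WT 3 or vMB Mutant 3, and its adjusted p reached 0.0890 in the other 11. In vMB alone it was called when WT replicate 3 was left out (0.72, adjusted p = 0.0247).

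Pvalb marks the fast-spiking basket and chandelier cells of the cortex. It had 448, 489, 306 and 361 normalized reads in PFC Mutant libraries and 265, 273, 366 and 346 in PFC WT libraries. In vMB there were 1399, 1832, 1860.0 and 1743 in Mutant, against 1526, 1142, 1177 and 1176 in WT. The vMB groups overlapped through 1 library on each side, Mutant replicate 1 below WT replicate 1. Pvalb differed on the log2 scale by 0.35 ± 0.15 (adjusted p = 0.232) in PFC, 0.45 ± 0.15 (adjusted p = 0.0780) in vMB and 0.40 ± 0.10 (adjusted p = 0.0173) over both, a 1.32-fold higher level in Mutant. Pvalb was called in 10 of the 16 fits without 1 library. Without PFC WT 1, PFC WT 2, PFC Mutant 1, PFC Mutant 2, vMB WT 2 or vMB Mutant 3 its difference dropped below the fold minimum, to 0.35 at the lowest, with an adjusted p still at or below 0.0396. In vMB alone it was called without WT replicate 1 (0.54, adjusted p = 0.0418) or without Mutant replicate 1 (0.54, adjusted p = 0.0448).

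Tac1, the precursor of substance P and neurokinin A, had the largest PFC difference of the 10 genes. Its values were 133, 299.9, 142 and 213 in PFC Mutant, against 88.1, 156, 163 and 116 in PFC WT, and 215, 366, 332 and 344 in vMB Mutant, against 215, 255, 182 and 229.5 in vMB WT. The groups overlapped in both tissues, and in vMB 3 of the 4 Mutant libraries stood above all WT libraries. For Tac1 it came to 0.55 ± 0.24 (adjusted p = 0.251) in PFC and 0.49 ± 0.24 (adjusted p = 0.260) in vMB. Over both it was 0.52 ± 0.17, a fold of 1.43, and its adjusted p of 0.0523 missed the threshold; it was called without PFC WT 2, PFC WT 3, PFC Mutant 1, PFC Mutant 3 or vMB Mutant 1 (adjusted p from 0.0231 to 0.043).

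Cck, the precursor of cholecystokinin, was the most abundant of the 10 genes in PFC. It had 5107, 4219, 4174 and 4855 normalized reads in PFC Mutant libraries and 3924, 3935, 3357 and 4234 in PFC WT libraries. In vMB it had 688, 525, 305 and 570.5 in Mutant, against 484, 320.1, 629 and 308 in WT. The PFC groups touched at their edges, with 2 Mutant libraries just under the highest WT library, and the vMB groups were mixed. For Cck the difference was 0.25 ± 0.22 in PFC and 0.27 ± 0.22 in vMB (adjusted p = 0.618 and 0.542). The SD of Cck was 30.7% of the mean in vMB Mutant and 34.9% in vMB WT, against 10.1% and 9.49% in PFC. The cortical signal in vMB also varied: the summed normalized read count of 10 markers of cortical projection neurons was 4774, 2545, 1657 and 2460 in vMB Mutant and 2448, 1746, 3680 and 1896 in vMB WT. The highest of those sums in each group belonged to the library with the highest Cck of that group, and Mutant replicate 3 was lowest in both. The part of the cortical signal in the vMB difference of Cck was not tested.

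Penk (chr4:4133531-4138819, GRCm38) encodes proenkephalin, the precursor of the enkephalins. It had 453, 1109, 366 and 469 normalized reads in PFC Mutant, against 432, 361, 481 and 435 in PFC WT; the vMB values were 885, 818, 1005 and 1128 in Mutant and 893, 727, 731 and 981 in WT. PFC Mutant replicate 2 stood alone, and the other 3 Mutant libraries lay inside the WT range. The log2 difference of Penk in PFC was 0.35 ± 0.24 with that library and 0.01 without it (adjusted p = 0.483 and 0.994). The same library had the highest summed level of 7 striatal spiny neuron markers, 4758 against 1728 to 2594 in the other 7 PFC libraries, and of the 6 oligodendrocyte markers, 87134 against 22685 to 66254. It was also the library with the highest Npy (1211), Pvalb (489), Tac1 and Crh of all PFC libraries and with the lowest Calb1. Without it the PFC difference of Tac1 was 0.32 (adjusted p = 0.543). Over both tissues 0 of the 10 genes were called without it: Npy differed by 0.38 (adjusted p = 0.0785), and Pvalb by 0.35 (adjusted p = 0.0362), under the fold minimum. Whether striatal or white-matter tissue in that dissection set these values was not tested.

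**Figure D2:**
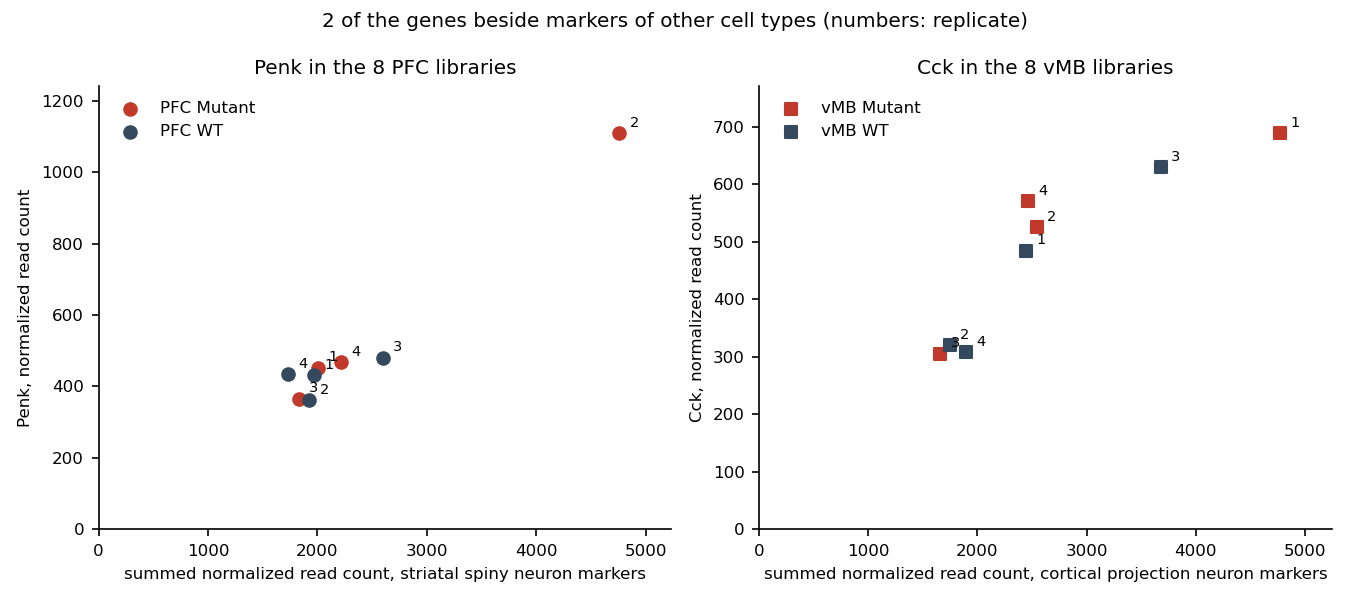
Left, Penk (y axis, normalized read count) against the summed normalized read count of striatal spiny neuron markers (x axis) in the 8 PFC libraries; right, Cck against the sum for cortical projection neuron markers in the 8 vMB libraries. Each point is a library with its replicate number. PFC Mutant 2 sits alone at 4758 and 1109, and in vMB the libraries with sums of 4774 and 3680 have the highest Cck values, 688 and 629.

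Vip marks interneurons that inhibit other interneurons. Its values were 319, 317, 274 and 289 in PFC Mutant and 288, 295, 214 and 287 in PFC WT, and 44.3, 40.2, 31.4 and 27.4 in vMB Mutant, against 17.0, 46.9, 54.9 and 36.0 in vMB WT. The groups overlapped in both tissues, and Vip had the smallest difference over both tissues of the 10 genes, 0.07 ± 0.18 (adjusted p = 0.849; 95% interval -0.31 to 0.45).

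Crh (chr3:19693401-19695396, GRCm38) encodes corticotropin-releasing hormone, the peptide that starts the hormonal stress response and is also made by some cortical interneurons. It had 72.5, 89.2, 52.9 and 49.3 normalized reads in PFC Mutant and 68.7, 67.8, 48.7 and 68.4 in PFC WT, and 106, 89.3, 138 and 89.6 in vMB Mutant, against 61.5, 40.5, 90.5 and 100.5 in vMB WT. In vMB, 2 WT libraries stood below the whole Mutant range and 2 within it. The log2 difference of Crh was 0.03 ± 0.25 in PFC and 0.58 ± 0.25 in vMB (adjusted p = 0.968 and 0.190). The summed level of 7 hypothalamic neuron markers also differed in vMB, at 245 to 1142 in Mutant against 19.3 to 339 in WT, where 3 WT libraries were at or below 47.6 and replicate 3 was at 339. The order of the libraries matched that of Crh only in part. Mutant replicate 4 had the highest sum, 1142, of which Pmch made up 890, with a Crh of 89.6. WT replicate 4 had the highest Crh of its group, 100.5, with a sum of 47.6. Mutant replicate 3 had the highest Crh, 138, with a sum of 383, and WT replicate 2 was lowest in both, at 40.5 and 19.3. Of the 4 hypothalamic markers that were tested, Pmch and Hcrt were called higher in vMB Mutant, with log2 differences of 3.68 and 3.61 (adjusted p = 0.0466 and 0.0337). Hypothalamus adjoins the ventral midbrain and holds many Crh cells; whether its share in the dissections set the vMB values of Crh was not tested.

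Calb1 and Calb2 encode calbindin and calretinin, and lie on chr4:15881264-15908064 and chr8:110137502-110168210 in GRCm38. Calb1 had 1324, 869, 1336 and 1307 normalized reads in PFC Mutant and 1415, 1117, 991 and 1321 in PFC WT, and 698, 668, 1055 and 916 in vMB Mutant, against 652, 518, 834 and 527 in vMB WT. In vMB, 2 Mutant libraries stood above all WT libraries, and the other 2 exceeded 3 of the 4. The log2 difference of Calb1 was -0.01 ± 0.18 in PFC (adjusted p = 0.985) and 0.40 ± 0.18 in vMB (adjusted p = 0.206). Calb2 had 161, 79.0, 137 and 113 in PFC Mutant, against 131, 144, 59.1 and 74.3 in PFC WT, and 1339, 1666, 1531 and 1508 in vMB Mutant, against 1368, 1466, 1217 and 1294 in vMB WT. For Calb2, 3 vMB Mutant libraries exceeded every vMB WT library and the fourth, replicate 1, did not. Its log2 difference was 0.31 ± 0.23 in PFC and 0.18 ± 0.23 in vMB (adjusted p = 0.540 and 0.736). This shared SE covers an unequal spread: the SD was 28.4% and 40.7% of the mean in PFC Mutant and WT, against 8.86% and 7.95% in vMB.

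For none of the 10 genes were the Mutant and WT values of a tissue free of overlap, where 8.02% of all tested genes in PFC and 15.4% in vMB had groups without overlap in either direction. The summed normalized read count of the 10 genes did separate: it was 9828 to 11360.1 in PFC Mutant against 8465 to 9744 in PFC WT, and 6702 to 7507 in vMB Mutant against 5392 to 6182 in vMB WT. Cck and Sst make up most of the PFC sum, so it follows those genes in the main. No share of comparable gene sets was computed for such a sum, and the length trend described below was not removed from it. In vMB the sum of the other neuronal calcium-binding genes separated too, at 56624 to 62833 in Mutant against 49366 to 55542 in WT. So did the endothelial sum, which was lower in Mutant, at 1244 to 1371 against 1399 to 1783.

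The second question was whether the genotype difference itself differed between vMB and PFC. For none of the 10 genes did it pass: their adjusted p ran from 0.864 to 0.997, and among all tested genes 0% were called, with 864 at an unadjusted p under 0.05. The largest gaps, vMB minus PFC, were 0.55 ± 0.36 for Crh (95% interval -0.20 to 1.31) and 0.41 ± 0.25 for Calb1 (-0.12 to 0.94). Sst had the narrowest interval, -0.19 to 0.43.

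Transcript length moved with genotype, and several of these genes are short. In a regression of each library on exon length, the slope (log2 units per doubling of length) lay between -0.031 and 0.028 in PFC Mutant against 0.055 to 0.098 in PFC WT libraries, and between -0.12 and -0.063 in vMB Mutant against -0.031 to 0.036 in vMB WT libraries. Short transcripts were thus relatively higher in Mutant libraries of both tissues. The exons of Npy cover 566 bases and those of Sst 721, Pvalb 1041, Cck 1305, Crh 1320, Penk 1634, Calb2 1743, Tac1 3399, Vip 3402 and Calb1 4846. With a smooth length trend removed from every library, no gene of the 10 was called in a genotype comparison, and their median difference was 0.10 in PFC, 0.16 in vMB and 0.14 over both tissues. Over both tissues Npy and Pvalb then had the values given beside their calls, and Sst differed by 0.03 (adjusted p = 0.871). Tac1 then differed by 0.49 (adjusted p = 0.113) and Calb1 by 0.22 (adjusted p = 0.357) over both. The difference remained above 0 for all 10 genes over both tissues.

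**Figure D3:**
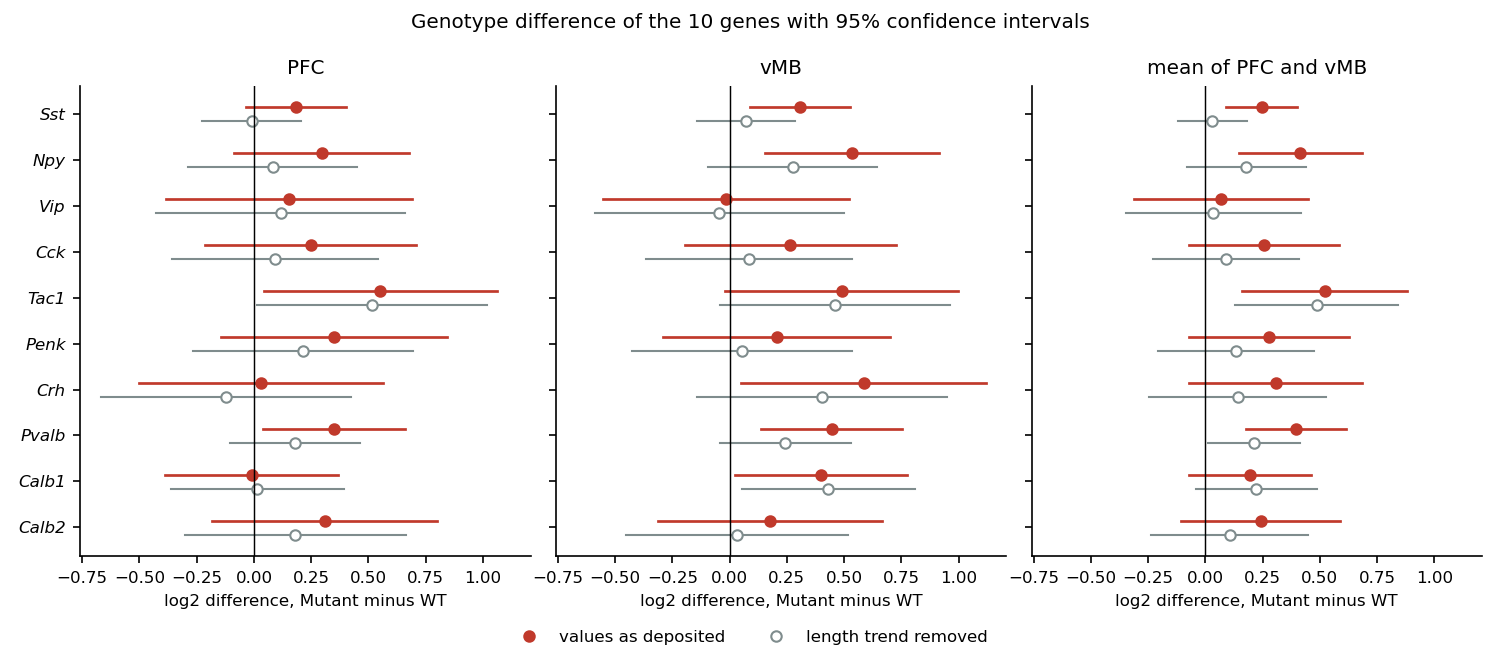
Log2 difference, Mutant minus WT (x axis), with its 95% interval for each of the 10 genes (y axis) in PFC, in vMB and as the mean of both. Filled red points are from the values as deposited and open grey points from values with the length trend removed; for Sst over both tissues the point lies at 0.25 before and 0.03 after, while Tac1 lies at 0.52 and 0.49.

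The third question was how the genes differ between the tissues. In WT mice, 4 of the 10 genes were higher in vMB than in PFC and 5 were lower, against 22.0% of all tested genes called higher and 21.6% called lower. Calb2 was 13.9-fold higher in vMB WT (1336 ± 106 against 102 ± 41.5 in PFC WT) and Pvalb 4.02-fold (1255 ± 181 against 312 ± 51.2), with adjusted p of 3.5e-10 and 2.9e-09. Folds here are from the log2 differences, and the ratio of the 2 means of Calb2 was 13.1. Penk and Tac1 were 1.94-fold and 1.72-fold higher in vMB WT (adjusted p = 0.0022 and 0.0105). Lower in vMB WT were Npy, at 80.5 ± 25.1 against 858 ± 91.7 in PFC WT (log2 difference -3.44), Cck at 435 ± 152 against 3863 ± 367 (-3.21), Vip at 38.7 ± 16.4 against 271 ± 37.9 (-2.88), Sst at 832 ± 48.1 against 2049 ± 304 (-1.29) and Calb1 at 633 ± 147 against 1211 ± 192 (-0.95). Crh did not pass, at 73.2 ± 27.4 in vMB WT and 63.4 ± 9.82 in PFC WT (log2 difference 0.14, 95% interval -0.40 to 0.67). The vMB WT and PFC WT values did not overlap for 9 of the 10 genes, Crh being the exception, and for 49.7% of all tested genes. The 2 tissues may come from the same mice, which the labels do not state. The paper describes dissecting both tissues from the same hemisphere of each brain. Across the tissues, 4 pairs of libraries share the bracketed code of their titles. They are PFC WT 1 with vMB WT 1, PFC WT 2 with vMB WT 2, PFC Mutant 2 with vMB Mutant 1, and PFC Mutant 3 with vMB Mutant 4. The code is not explained, and the deviations of these pairs from their group means had r from -0.032 to 0.0076.

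Per kilobase of exon, Sst and Cck led in PFC WT, with mean levels of 2843 ± 421 and 2960 ± 281 normalized reads per kb that lay within each other's spread, followed by Npy at 1516 ± 162. Pvalb, Penk and Calb1 formed a middle group of 300.2 ± 49.2, 262 ± 30.2 and 250 ± 39.6 per kb whose spreads overlapped. Vip was at 79.7 ± 11.2 and Calb2 at 58.5 ± 23.8, and Crh and Tac1 were lowest, at 48.0 ± 7.44 and 38.4 ± 10.3. In vMB WT the order per kb was different. Pvalb and Sst came first, at 1206 ± 174 and 1154 ± 66.8 per kb, then Calb2 at 767 ± 61.0 and Penk at 510 ± 76.8. Vip was lowest there, at 11.4 ± 4.82.

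**Figure D4:**
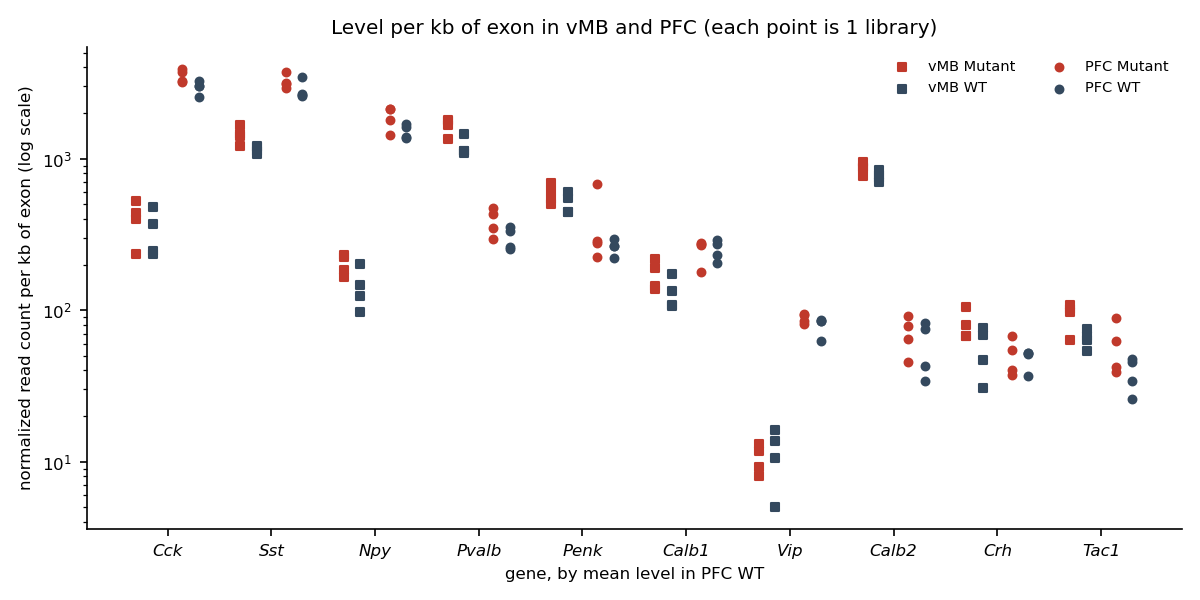
Normalized read count per kb of exon (y axis, log scale) for each gene (x axis, ordered by its mean in PFC WT), with 1 point per library for vMB Mutant, vMB WT, PFC Mutant and PFC WT. The vMB points of Calb2 and Pvalb lie above those of PFC and the vMB points of Npy, Cck and Vip lie far below, in both genotypes.

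Within groups, the 10 genes did not move as 1 block. After the mean of each group was subtracted, the closest pair over the 16 libraries was Npy and Cck (Pearson's r = 0.75, Spearman's rho = 0.74), and Pvalb and Penk (r = 0.60, rho = 0.51) and Sst and Cck (r = 0.57, rho = 0.59) came next. These libraries share their dissections, so the values are descriptions. Among 11084 genes with a mean of at least 50, the most similar to Cck were Rtn4rl2, Rin1 and Sept5 (r = 0.95 each). Those most similar to Penk were Ppp1r1b (r = 0.90), which encodes the dopamine-regulated phosphoprotein DARPP-32 of striatal projection neurons, Pde1b (r = 0.90) and Crybg3 (r = 0.89). Calb2 was most similar to Trp53i11 (r = 0.94), Zmym3 (r = 0.92) and Xkr8 (r = 0.91). For Sst the most similar gene was Rnaseh1 (r = 0.86), for Npy Josd1 (r = 0.83), for Pvalb Olfml3 (r = 0.88), for Vip Naa30 (r = 0.87), for Tac1 Atg4d (r = 0.88), for Calb1 Trim23 (r = 0.86) and for Crh Clic5 (r = 0.86).

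Genes that interneurons share regardless of their peptide were also read. Of the 5 core genes of GABA neurons, limma called none, with 1 in PFC and 2 in vMB at an unadjusted p under 0.05, and 1 of 5 in PFC and 0 of 5 in vMB had a difference above 0, with medians of -0.10 and -0.16. Gad2, a GABA-synthesizing enzyme, had an adjusted p below the threshold over both tissues with a difference of -0.25 (adjusted p = 0.0343), short of the fold minimum, and was at -0.19 (adjusted p = 0.133) with the length trend removed. Of 10 tested genes of interneurons born in the medial ganglionic eminence, the origin of Sst and Pvalb cells, none was called, with 3 in each tissue at an unadjusted p under 0.05, and 2 of 10 lay above 0 in PFC and 0 of 10 in vMB. Lhx6 of this list was at 1.93 to 29.0 in vMB libraries, against 148 to 199 in PFC libraries. In vMB the other genes of the list, Erbb4 and Sox6 among them, therefore need not stand for such interneurons. Erbb4, the neuregulin receptor, and Sox6, a transcription factor of these cells, differed by -0.31 (adjusted p = 0.0169) and -0.37 (adjusted p = 0.0181) over both tissues, again short of the fold minimum, and by -0.15 (adjusted p = 0.249) and -0.19 (adjusted p = 0.272) with the length trend removed. Of 11 genes of interneurons born in the caudal ganglionic eminence, none was called, with 1 in PFC and 0 in vMB at an unadjusted p under 0.05 and medians of -0.07 in PFC and 0.08 in vMB. In bulk tissue, fewer cells of a type and less RNA per cell cannot be told apart.

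Other parts of the peptide pathway were examined gene by gene. Of 12 other neuropeptide precursors, Tac2 was called higher in Mutant in vMB and over both tissues, Gal over both tissues, and none was called lower. Among all tested genes, 3.25% were called in vMB in either direction and 0.945% were called higher over both tissues. Tac2, the neurokinin B precursor, averaged 41.8 ± 14.8 in vMB Mutant against 15.0 ± 3.89 in vMB WT (log2 difference 1.37, adjusted p = 0.00595). Its PFC means were 70.5 ± 8.54 in Mutant and 69.8 ± 10.9 in WT. Gal, the galanin precursor, averaged 33.7 ± 1.97 in vMB Mutant against 17.7 ± 2.99 in vMB WT, was at or below 5.18 in every PFC library, and was called only over both tissues (1.05, adjusted p = 0.0457). With the length trend removed Gal was not called (0.85, adjusted p = 0.160), and Tac2 was called in vMB (1.20, adjusted p = 0.0213) but not over both tissues, where it was at 0.53 (adjusted p = 0.0924) against 0.70 (adjusted p = 0.0141) before. The median of these 12 genes was 0.40 in vMB and 0.12 in PFC. Whether the hypothalamic marker difference given beside Crh had a part in their values was not tested. Of 19 tested peptide receptors none was called, with 1 in PFC and 2 in vMB at an unadjusted p under 0.05 (medians -0.07 in PFC and 0.01 in vMB). Crhbp, which binds Crh peptide, was at 0.44 in vMB (adjusted p = 0.0966). Oprm1, the mu opioid receptor, was at -1.12 in PFC (adjusted p = 0.224). That difference rests on very low, overlapping counts, 1.25 to 10.9 in PFC Mutant and 6.97 to 19.4 in PFC WT libraries. Of 16 genes of peptide processing and dense-core granules none was called, with 2 in each tissue at an unadjusted p under 0.05. The closest were Scg5, the chaperone 7B2 of prohormone convertase 2, at 0.38 in vMB (adjusted p = 0.00923), and Furin, a proprotein convertase, at -0.32 in vMB (adjusted p = 0.0271). Of 17 tested other neuronal calcium-binding genes none was called, with 1 in PFC and 3 in vMB at an unadjusted p under 0.05, and Calm2, a calmodulin gene, differed by 0.35 in vMB (adjusted p = 0.00841). With the length trend removed, the vMB values were 0.22 for Scg5 (adjusted p = 0.138), -0.20 for Furin (adjusted p = 0.200) and 0.19 for Calm2 (adjusted p = 0.203). None of 14 activity-regulated genes was called and 0 had an unadjusted p under 0.05 in either tissue, with medians of -0.06 in PFC and 0.12 in vMB.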

How the data were processed

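RNA of 16 micro-dissected tissue samples was sequenced from poly-A libraries, single end. Per the submitters' notes and the methods, the authors used Cutadapt 1.8.3 for trimming, TopHat 2.0.10 for mapping, HTSeq 0.6.1p1 for counting and DESeq2 for normalization. The deposited signal is the normalized count of each gene and library, on a linear scale. The methods name the human genome while the identifiers are of mouse genes, so the build behind the values is not known. Between 67.0% and 69.4% of values under 20 lay within 0.05 of a whole step, so no count test was run. Another 13 columns hold the authors' own comparisons and were not used.

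Groups came from the labels. With 1 added and log2 taken, 14814 genes with a mean of at least 10 were fitted with limma 3.58.1 in R 4.3.3 (4 groups, mean-variance trend, two-sided, Benjamini-Hochberg adjustment over all tested genes); the fit was tested on simulated data. A call needed a fold of 1.3 or more beside an adjusted p no higher than 0.05. Differences over both tissues average the PFC and vMB differences. The study describes Mutant and WT mice as littermates but the sources used here do not say which libraries share a litter, and p-values measure the spread between these libraries. Exon lengths and coordinates are from GENCODE vM21 (GRCm38); the length trend was a smooth curve (span 0.3) of each library's deviations on log2 exon length. The members and the other 19 lists of genes were chosen with earlier results of these data known. The text names all 10 members, the 3 most similar genes of a member, called genes of the other lists and at most 2 more per list and comparison; Slc6a3, Slc17a7, Avp and Oxt were added after their values were seen. Alternatives were the pseudocount, the filter, 3 rescalings, the trend, the length trend, blocks for the replicate number or title code, the fold minimum and leaving out each library.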

Additional observations from a re-analysis of the deposited data

Results flagged for a closer look

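In 6 of the 40 sets of 4 values (10 genes in 4 groups), the highest or lowest library stood far from the other 3 by Dixon's criterion, which chance alone meets in about 1 of 20 sets. Sst was high in PFC WT 2, at 2504, and Vip was low in PFC WT 3, at 214. Pvalb was high in vMB WT 1, at 1526, and without that library Pvalb was called in vMB, as given above. Penk was high in PFC Mutant 2, at 1109, and Calb1 was low in the same library, at 869, which also had the highest striatal and oligodendrocyte marker sums of the PFC libraries. Crh was low in PFC WT 3, at 48.7. For none of the 10 genes did the difference in genotype effect between the tissues pass its test.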

How the results depend on the processing

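The 10 genes were recomputed under every alternative. Of 1190 single values, 1108 kept their direction and their side of the threshold, 25 lost a call, 15 gained one and 42 changed direction, none of them called. Over both tissues, 2 of the 10 genes were called; the count was 0 with the length trend removed, with or without the replicate block, and 0 at a fold of at least 1.5, and it was 1 with no filter on low values and with no mean-variance trend (Pvalb each time). It was 3 with no fold minimum (Npy, Pvalb and Sst), and 3, with Tac1 added, at a mean of at least 50, after upper-quartile or quantile rescaling and with the title code as a correlated block; Tac1 was called in 5 of 12 alternatives. Without 1 library it ran from 0 to 3. In vMB it was 1 (Pvalb) when only the libraries of the groups compared were fitted and 0 to 1 without 1 library. The cause of these changes was not tested, except that a stricter fold calls fewer genes by construction.

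All tested genes called were 21 in PFC, 481 in vMB and 383 over both tissues. In PFC the count was 6 at a fold of 1.5, 3 with no filter, 57 at a mean of at least 50, and 0 with the length trend removed (with or without the block), with only the compared libraries, with no trend and with the replicate block, and it ran from 0 to 260 without 1 library. In vMB it was 956 with no fold minimum, 99 at 1.5, 127 with the length trend removed (0 with the block too), 314 with the replicate block and 163 to 573 without 1 library. Over both it was 1923 with no fold minimum, 83 at 1.5, 118 with the length trend removed (66 with the block too) and 245 to 542 without 1 library. The count of genes whose genotype effect differed between tissues was 0 to 1. Over both tissues 140 genes were higher and 243 lower, and 217 and 185 after rescaling to the same upper quartile; in vMB the split was 182 and 299, and 258 and 241 after it.

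Same-numbered Mutant and WT libraries did not deviate together (r from -0.088 to 0.087), so the numbers do not pair them. With the replicate block, 1 of the 10 genes was called over both tissues, Tac1 (adjusted p = 0.0282), and Npy (0.0928) and Pvalb (0.0702) were not.

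Uncalled differences changed sign for Sst in PFC (-0.010 with the length trend removed, with or without the block), Crh in PFC (-0.12 likewise, and -0.13 to 0.15 without 1 library), Calb1 in PFC (0.015 after upper-quartile rescaling or, with or without the block, removal of the length trend, 0.018 after quantile rescaling, -0.10 to 0.14 without 1 library) and Vip in vMB (0.0094 after upper-quartile and 0.0086 after quantile rescaling, -0.36 to 0.19 without 1 library). Without 1 library Vip over both tissues ran from -0.10 to 0.17 and the tissue difference of Crh from -0.043 to 0.39. The gap between tissues ran from -0.14 to 0.26 for Cck (-0.0084 with the length trend removed, with or without the block), -0.51 to 0.035 for Vip, -0.026 to 0.20 for Pvalb, -0.23 to 0.16 for Tac1, -0.33 to 0.20 for Penk and -0.33 to 0.093 for Calb2. Vip and Npy in vMB and Crh in both tissues had some of the lowest counts of the 10 genes; whether depth limited their tests was not tested.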

Other observations

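Markers of other cells were read beside the 10 genes. Of 6 endothelial markers, 4 were called lower in vMB Mutant, Cdh5 (-0.80), Tek (-0.77), Pecam1 (-0.64) and Flt1 (-0.59). Among the 14814 tested genes, 299 were called lower in vMB. Slco1a4 was not called and went the other way, at 478 to 681 in vMB Mutant against 354 to 608 in vMB WT. Cldn5 was not called and overlapped, at 112 to 250 against 155 to 285. The summed level was 1244 to 1371 in vMB Mutant against 1399 to 1783 in vMB WT. These values are as deposited, without the length trend removed. Of 6 microglial markers, P2ry12 was called higher in vMB (0.38, adjusted p = 0.0443), where 182 of all tested genes were called higher. In vMB 3 of the 6 microglial markers lay above 0, with a median of -0.02. None of the tested genes of the Dlx family (5), cortical projection neurons (10), striatal spiny neurons (7), dopamine neurons (7), midbrain and hindbrain glutamate neurons (5), midbrain GABA neurons (5), oligodendrocytes (6) or astrocytes (6) was called by limma in a genotype comparison; at an unadjusted p under 0.05 in vMB these lists held 0, 1, 1, 0, 1, 1, 0 and 1 genes in that order. The summed GABA core level was 13779 to 15381 in vMB Mutant against 15261 to 17378 in vMB WT.

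In PFC Mutant 1 the hypothalamic marker sum was 277, against 5.90 to 56.3 in the other 7 PFC libraries, with Avp at 104 and Oxt at 69.9. Crh in that library was 72.5, inside the range of the other PFC Mutant libraries, while Cck (5107) and Calb2 (161) were the highest and Npy (1208) and Pvalb (448) the second-highest of PFC. The highest Npy and Pvalb were in PFC Mutant 2, and PFC Mutant 3 (813 for Npy, 306 for Pvalb) lay inside the PFC WT range of both. Without PFC Mutant 1, 1 of the 10 genes was called over both tissues, Tac1 (0.60, adjusted p = 0.0295); Npy was at 0.38 (adjusted p = 0.0787) and Pvalb at 0.37 (adjusted p = 0.0367). The part of the hypothalamic signal in these values was not tested.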
